A study of Mus musculus with 6 samples.

Results

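Hypoxia-inducible factor (HIF) and the enzymes that tie it to oxygen are encoded by 9 genes that were chosen by their role in the pathway, with earlier results of these data known. No measured value enters the rule. They are the alpha subunits Hif1a and Epas1, the beta subunits Arnt and Arnt2, the ubiquitin ligase receptor Vhl, the prolyl hydroxylases Egln1, Egln2 and Egln3, and the asparaginyl hydroxylase Hif1an. All 9 were among the 16244 genes listed, and all 9 passed the expression filter that left 11908 genes for testing.

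The comparison was between Th17 cells of wild-type (WT) mice and of knockin mice that carry an asparagine to aspartate substitution in the nuclear receptor RORγt (RORγtN275D), with 3 RNA-seq libraries each. Th17 cells are IL-17-producing helper T cells whose identity depends on RORγt, and whether the mutation changes transcripts of the HIF pathway was the question addressed. Naive CD4+ T cells, labelled as coming from spleen, were stimulated through CD3 and CD28 for 3 days under pathogenic Th17 conditions. The study's design text names IL-6, IL-1β and IL-23 as the cytokines, whereas its methods add TGF-β and antibodies to IL-4 and IFN-γ. By the study's methods, the WT mice were purchased C57BL/6 animals (listed as C57BL/6NJ), and the knockin mice, also on a C57BL/6 background, came from another laboratory. The study's results instead describe generating the knockin mice, and its resource list names a company as their source. Littermate controls are mentioned, when applicable, for the colitis transfers only. The source of the donors of these libraries was not stated, so that genotype and mouse source cannot be told apart. Mice in the study were 6 to 12 weeks old unless stated otherwise and of both sexes. The zygosity of the knockin donors, and whether each library came from a separate animal or culture, were not given in the sources used here. The p-values therefore measure the spread between these libraries only.

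An active HIF is a heterodimer of an oxygen-regulated alpha subunit (HIF-1α from Hif1a, HIF-2α from Epas1) and a stable beta subunit (ARNT or ARNT2). When oxygen is present, the prolyl hydroxylases PHD1 (Egln2), PHD2 (Egln1) and PHD3 (Egln3) hydroxylate the alpha subunit, VHL binds the hydroxylated form, and the proteasome degrades it, while FIH (Hif1an) hydroxylates an asparagine that blocks coactivator binding. In T cells HIF-1α is made after antigen receptor and cytokine stimulation even without hypoxia, and it is known to favour glycolysis and Th17 differentiation. Much of this control acts on protein, which RNA-seq does not measure.

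The promoter sequences of the genes bear on the comparison because HIF binds the core letters ACGTG or GCGTG of the hypoxia response element. AGGTCA is only the core of the sites that ROR receptors bind. It was scanned without the bases beside it, so a match does not by itself make a ROR site. RefSeq promoters on GRCm38.p6 were found for 8 of the 9 genes, in 9 windows of 250 bases before the start site, with Epas1 having no entry. At least 1 HRE core, read on either strand, lay in windows of 5 genes, namely Hif1a, Arnt, Egln1, Egln2 and Egln3. Across 32851 promoters of the same length, 38.6% held an HRE core and 14.0% held AGGTCA. The windows of Vhl, Arnt2 and Hif1an held no HRE core. The letters AGGTCA were found before Hif1a, 97 bases from the start site and on the opposite strand (TGACCT). They were also found before Hif1an, 132 bases from its start site. Whether the bases beside these matches make them ROR sites was not tested. Hif1a had 3 HRE core matches, of which 2 are the same palindrome CACGTG read on both strands. Its window precedes a RefSeq start site that lies inside the GENCODE span of the gene, 73901375 to 73947530. The bases before 73901375 were not scanned. The windows of Hif1a (chr12:73907617-73907866, plus strand), its partner Arnt (chr3:95434140-95434389, plus strand) and the most abundant hydroxylase gene Egln3 (chr12:54203875-54204124, minus strand) are shown 5′ to 3′ in the direction of the gene. Capitals mark the HRE cores and, in Hif1a, also TGACCT.
Hif1a: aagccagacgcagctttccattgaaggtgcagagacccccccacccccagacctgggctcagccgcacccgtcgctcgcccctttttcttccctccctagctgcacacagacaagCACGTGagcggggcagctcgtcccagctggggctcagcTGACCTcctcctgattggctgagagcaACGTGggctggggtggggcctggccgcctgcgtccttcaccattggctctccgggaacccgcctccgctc
Arnt: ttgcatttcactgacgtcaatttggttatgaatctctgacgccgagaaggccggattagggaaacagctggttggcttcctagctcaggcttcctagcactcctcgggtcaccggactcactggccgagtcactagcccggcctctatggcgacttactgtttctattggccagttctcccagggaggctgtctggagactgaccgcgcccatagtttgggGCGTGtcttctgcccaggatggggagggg
Egln3: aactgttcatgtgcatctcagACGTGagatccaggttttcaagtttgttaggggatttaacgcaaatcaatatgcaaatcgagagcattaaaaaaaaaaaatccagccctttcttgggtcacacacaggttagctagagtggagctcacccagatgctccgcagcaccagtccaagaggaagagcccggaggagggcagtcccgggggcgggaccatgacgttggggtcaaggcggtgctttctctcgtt
A match describes letters in the window only, and binding was not measured in these libraries.

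Transcript levels are given as normalized reads, that is the reads the authors counted on each gene after scaling by 1 factor for each library. Reads on genes, estimated by dividing out that factor, ranged from 17659035 to 18510878 over the 6 libraries. In some libraries the factor lies close to 1, and the quotients were not used as counts in any test. Fold changes and tests used log2(normalized reads + 1) with limma, a linear model that shares information on the spread across genes, and a gene was called when its Benjamini-Hochberg adjusted p over all 11908 genes was under 0.05. On this scale the change of low genes is understated. Cd3e, Cd4, Il17a and Il17f, which mark the labelled cell type, were all abundant in both genotypes. Their levels were not alike, with Cd3e (log2 fold change -0.22) and Cd4 (-0.27) called lower and Il17a (0.23) and Il17f (0.26) called higher in RORγtN275D cells. Of 9 Th17 markers tested, 5 were called higher and 3 lower, where 24.7% and 26.1% of all genes were.

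Of the 9 genes, 6 were higher and 1 was lower in RORγtN275D cells. Hif1a, Epas1, Arnt, Egln1, Egln2 and Egln3 rose, Vhl fell, and Arnt2 and Hif1an were not called. These 7 calls stand against a background in which 50.9% of all genes tested were called, 24.7% as higher and 26.1% as lower, so that a call alone does not set a gene apart in this comparison. The genotypes did not overlap in 7 of the 9 genes, where the share over all genes tested was 57.7%. The median log2 fold change over all genes tested was -0.0026.

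**Figure D1:**
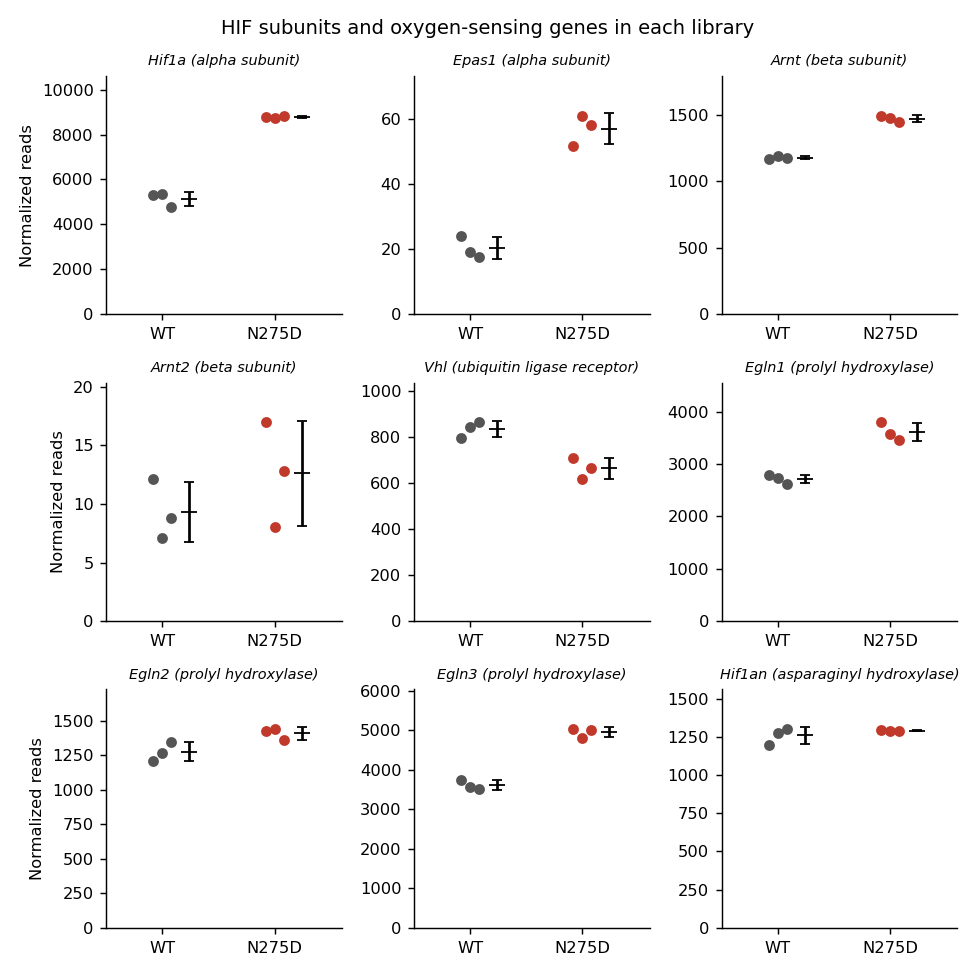
Normalized reads of each of the 9 genes (vertical axes, each from 0) in the 3 WT (grey) and 3 RORγtN275D (red) libraries, with the mean and SD beside the points. The points of the genotypes are apart in every panel except those of Arnt2 and Hif1an, and Hif1a goes from 4772 to 5345 in WT to between 8734 and 8845 in the mutant.

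Hif1a (GRCm38 chromosome 12, 73901375 to 73947530) had 5294, 5345 and 4772 normalized reads in the WT libraries and 8777, 8734 and 8845 in the RORγtN275D libraries. The mutant libraries lay close together and all far above the WT libraries, of which the third was the lowest. The mean rose from 5137 ± 317 to 8785 ± 55.9 (SD over n = 3), which is 1.71-fold. Its log2 fold change was 0.78 (standard error 0.04, 95% interval 0.69 to 0.86, limma adjusted p = 4.00e-10). Hif1a shares 330 of its exon bases (5.60%) with the antisense gene Gm15283 and 148 (2.51%) with Gm49321 on the same strand. The strand setting of the counting was not given in the sources used here, so reads in those stretches cannot be told apart.

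Epas1 (chromosome 17, 86753700 to 86833410) encodes HIF-2α, the alpha subunit best known from endothelium and other non-lymphoid tissue. It was a low transcript here, with 24.2, 19.2 and 17.7 normalized reads in WT and 51.9, 61.2 and 58.3 in RORγtN275D libraries. Every mutant library held more than 2 times the reads of every WT library. The mean went from 20.4 ± 3.43 to 57.1 ± 4.75 (SD over n = 3), 2.81-fold, and the log2 fold change was 1.45 (standard error 0.19, 95% interval 1.06 to 1.85, limma adjusted p = 8.93e-06). Of the 9 genes, Epas1 alone was called with at least a 2-fold change, a class that held 3.59% of all genes tested.

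Because Epas1 is abundant in other cell types, their markers were read in the same libraries. Of 6 endothelial markers 5 were listed, and their sum was 283 to 353 normalized reads in WT and 402 to 458 in RORγtN275D libraries. Nearly all of it was Pecam1, a surface molecule that leukocytes also carry (307 ± 37.4 and 424 ± 26.2, SD over n = 3), whereas Kdr and Tie1 were at 0 or near 1 and Tek was at 3.03 or less in every library. Vwf had means of 1.67 and 7.30. The summed B cell markers went from 163 to 173 in WT to between 241 and 308 in RORγtN275D, with 4 of the 5 tested called higher, and those of CD8 T and natural killer cells from 201 to 216 to between 284 and 325, with 3 of 4 called higher, where 24.7% of all genes tested were. Myeloid markers summed to 94.9 to 114 and 109.6 to 136, with Adgre1 lower and Cd14 higher, and fibroblast markers to 85.7 to 94.9 and 100.3 to 109. The methods describe isolation of the CD4+ T cells by negative selection, a step meant to remove other cells, but do not name the cell types removed. The part of other cell types in the Epas1 result was not tested, and in bulk RNA more cells of a type and more RNA per cell cannot be told apart.

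Arnt (chromosome 3, 95434388 to 95497240), the shared beta subunit, had 1170, 1187 and 1178 normalized reads in WT and 1494, 1478 and 1443 in RORγtN275D libraries. The WT values were nearly the same in the 3 libraries, and every mutant value was higher. The mean rose 1.25-fold, from 1178 ± 8.75 to 1472 ± 26.3 (SD over n = 3), and the log2 fold change was 0.32 (standard error 0.04, 95% interval 0.23 to 0.41, limma adjusted p = 1.59e-05). Arnt2 (chromosome 7, 84246278 to 84410176), the beta subunit best known from neurons, was barely present, with 12.1, 7.06 and 8.84 normalized reads in WT and 17.0, 8.03 and 12.8 in RORγtN275D libraries. Its values overlapped between the genotypes. The mean of Arnt2 over the 6 libraries, 10.97, was just above the filter minimum of 10, and its WT mean of 9.34 was below it. The log2 fold change of Arnt2 was 0.37 with a 95% interval of -0.37 to 1.11 (limma adjusted p = 0.401), an interval that runs from a fall of less than 2-fold to a rise of just over 2-fold, so no difference was detectable at this depth.

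Vhl (chromosome 6, 113623959 to 113631633), the receptor that brings hydroxylated HIF-α to its ubiquitin ligase, moved the other way. It had 797, 844 and 865 normalized reads in WT and 711, 619 and 666 in RORγtN275D libraries, with the lowest WT library above the highest mutant library. The mean fell from 836 ± 34.8 to 665 ± 45.9 (SD over n = 3), a fold of 0.796. Its log2 fold change was -0.33 (standard error 0.06, 95% interval -0.46 to -0.20, limma adjusted p = 0.000260).

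The prolyl hydroxylase genes all rose. Egln1 (chromosome 8, 124908587 to 124949324) encodes PHD2, the main oxygen sensor in most cells, and had 2784, 2730 and 2625 normalized reads in WT and 3799, 3569 and 3467 in RORγtN275D libraries. Egln3 (chromosome 12, 54178981 to 54203860) encodes PHD3 and had 3753, 3581 and 3511 in WT and 5033, 4804 and 5013 in the mutant. Both had every mutant library far above every WT library. The mean of Egln1 rose from 2713 ± 80.9 to 3612 ± 169.6 (SD over n = 3), and its log2 fold change was 0.41 (standard error 0.04, 95% interval 0.32 to 0.50, limma adjusted p = 9.41e-07). The mean of Egln3 rose from 3615 ± 124.5 to 4950.2 ± 127 (SD over n = 3), and its log2 fold change was 0.45 (standard error 0.04, 95% interval 0.37 to 0.54, limma adjusted p = 1.02e-07). Egln1 and Egln3 are themselves known HIF target genes.

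Egln2 (chromosome 7, 27158658 to 27166802), which encodes PHD1, had 1209, 1270.0 and 1349.6 normalized reads in WT and 1429, 1439.6 and 1358 in RORγtN275D libraries. The highest WT and the lowest mutant library almost met. The rise from 1276 ± 70.4 to 1409 ± 44.3 (SD over n = 3) gave a log2 fold change of 0.14 (standard error 0.05, 95% interval 0.04 to 0.25, limma adjusted p = 0.0252). This call was lost without WT replicate 1 (limma adjusted p = 0.125), WT replicate 2 (0.0545), RORγtN275D replicate 1 (0.0885) or RORγtN275D replicate 2 (0.104), and in a limma fit without a trend (0.0786), although the difference stayed positive. Hif1an (chromosome 19, 44562850 to 44576274), which encodes FIH, had 1199, 1276 and 1299.5 in WT and 1294, 1288 and 1287 in RORγtN275D libraries, and the genotypes overlapped. Its log2 fold change was 0.04 with a 95% interval of -0.06 to 0.14 (limma adjusted p = 0.539).

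**Figure D2:**
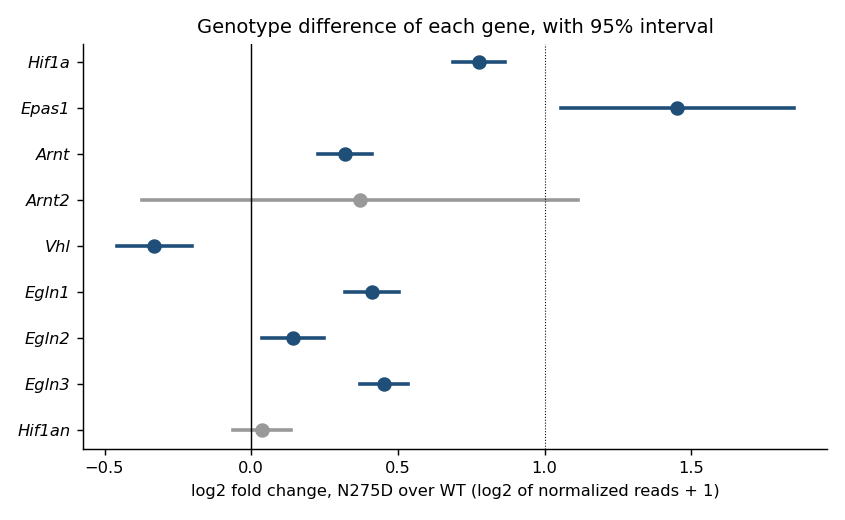
Log2 fold change of each gene, RORγtN275D over WT, on the log2(normalized reads + 1) scale, with its 95% interval from limma. Blue marks genes called at an adjusted p under 0.05 and grey those not called, and the dotted line marks 2-fold. Epas1 is farthest to the right at 1.45 with the widest interval of the called genes, and Vhl at -0.33 is the only gene called to the left of 0.

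With 3 libraries against 3, the smallest two-sided p that an exact permutation test can reach is 0.1, which was the value for each of the 7 genes called. The exact p was 0.4 for Arnt2 and 0.5 for Hif1an.

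Levels of different genes were compared per kilobase (kb) of exon, using the merged exons of all transcripts in GENCODE vM21. Egln3 was the most abundant of the 9 genes, at 1358 ± 46.8 normalized reads per kb in WT and 1859.6 ± 47.6 in RORγtN275D cells (SD over n = 3). Hif1a came next at 871 ± 53.8 and 1490.0 ± 9.47, ahead of Egln1 at 755 ± 22.5 and 1005 ± 47.2 and Egln2 at 456 ± 25.2 and 503 ± 15.8. These transcripts of the alpha subunit and its hydroxylases were thus well above those of Vhl (279 ± 11.6 and 222 ± 15.3), Hif1an (190.5 ± 7.95 and 195 ± 0.563) and Arnt (147 ± 1.09 and 184 ± 3.29). Epas1, at 3.64 ± 0.614 and 10.2 ± 0.849, and Arnt2, at 1.21 ± 0.333 and 1.64 ± 0.582, stood far below. The order was the same in both genotypes, and the libraries of neighbours in it did not overlap within a genotype. The places of Vhl, Hif1an and Arnt depend on the transcripts counted. With the exons of the GENCODE basic set, Arnt was at 244 per kb in WT and 305 in RORγtN275D cells, above Hif1an in both and above Vhl (299 and 238) in the mutant.

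**Figure D3:**
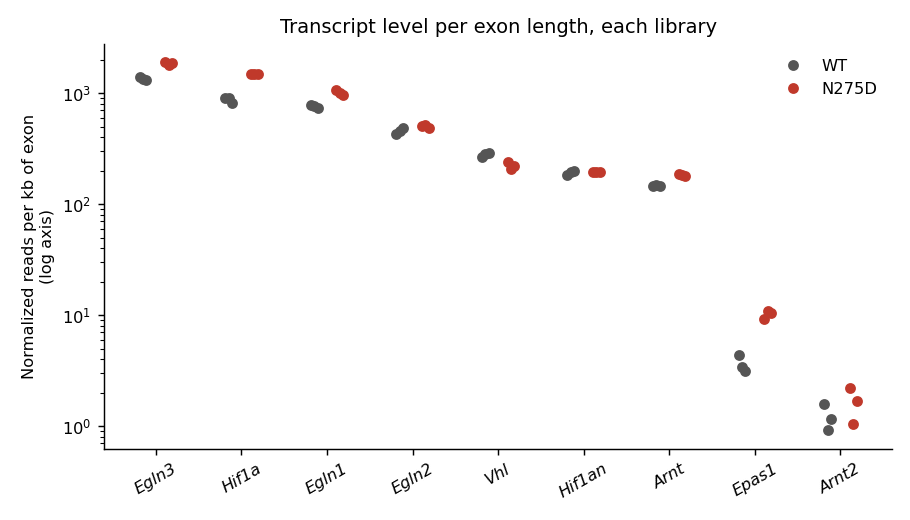
Normalized reads per kb of exon (log axis) for the 9 genes in the 3 WT (grey) and 3 RORγtN275D (red) libraries, ordered by level. Egln3 and Hif1a lead in both genotypes, whereas Epas1 and Arnt2 lie near or below 10.

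Levels per kb also give the balance between the genes, as a description of the values above. The summed transcripts of the 3 prolyl hydroxylases were 2616, 2558 and 2531 per kb in WT and 3458, 3312 and 3333 in RORγtN275D libraries. Egln3 held 52.9% ± 0.922 of this sum in WT and 55.2% ± 1.11 in the mutant, Egln1 held 29.4% ± 0.461 and 29.8% ± 0.820, and Egln2 held 17.8% ± 1.27 and 14.9% ± 0.513 (SD over n = 3). The share of Egln2 was lower in every mutant library than in every WT library, and that of Egln1 overlapped.

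Hif1a was higher relative to its hydroxylases and to Vhl in every mutant library than in any WT library. The ratio of Hif1a to the Egln sum was 0.343, 0.354 and 0.320 in WT and 0.430, 0.447 and 0.450 in RORγtN275D libraries. Its ratio to Vhl moved most, from 3.37, 3.22 and 2.80 to 6.28, 7.17 and 6.75, that is from a mean of 3.13 to 6.73. The ratio to Arnt went from 6.15, 6.11 and 5.50 to 7.98, 8.03 and 8.32, and the ratio to Hif1an from 4.95, 4.69 and 4.11 to 7.60, 7.60 and 7.70. Only the ratio to Epas1 fell, from 207, 264 and 256 to 160, 135 and 144, with Hif1a still the far more abundant alpha subunit. In all 5 ratios the genotypes did not overlap. All share Hif1a, which itself did not overlap, so they restate the levels above and are not 5 separate results.

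**Figure D4:**
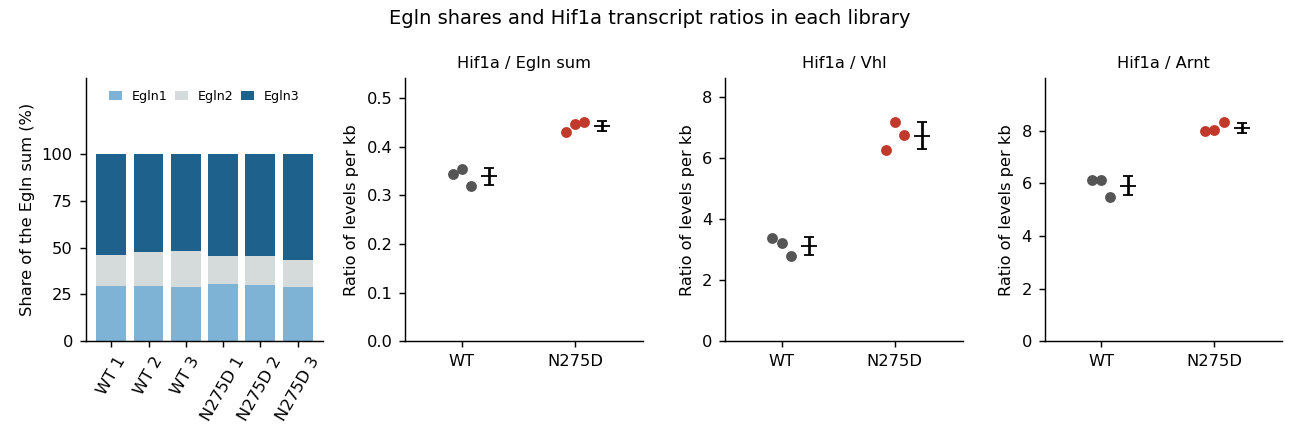
Left, the share of the summed prolyl hydroxylase transcripts per kb that each Egln gene holds in each library, as stacked bars in percent. Right, the ratio of Hif1a to the Egln sum, to Vhl and to Arnt in each library, with mean and SD. The ratio to Vhl goes from 3.13 ± 0.296 in WT to 6.73 ± 0.448 in RORγtN275D cells.

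Of 20 genes tested that act on HIF-1α protein, 3 were higher, 7 were lower and 10 were not called, a share of calls near the 50.9% over all genes tested, and the median log2 fold change was -0.02. The scaffold of the VHL ubiquitin ligase was not among the calls. Elob had a log2 fold change of 0.03, Eloc of -0.04, Cul2 of 0.09 and Rbx1 of 0.07 (limma adjusted p = 0.707, 0.562, 0.238 and 0.249). None of these 4 was called under TMM-type or quantile scaling either. Siah2, a ubiquitin ligase that targets PHD proteins for degradation, fell from 1489.5 ± 17.2 to 1183 ± 35.9 normalized reads (SD over n = 3), a log2 fold change of -0.33 (limma adjusted p = 1.46e-05). P4htm, a transmembrane prolyl hydroxylase, fell by 0.32 and Siah1b, a relative of Siah2, by 0.27 on the log2 scale. Os9, which was described as bringing PHD proteins to HIF-1α, rose by 0.23, the deubiquitinase Usp33 by 0.19 and the scaffold protein Rack1 by 0.13. The count of calls was 6 without RORγtN275D replicate 1 and 5 without RORγtN275D replicate 3.

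Of 13 HIF coactivators and inhibitors tested, 4 were higher, 4 were lower and 5 were not called (50.9% of all genes were called, 24.7% higher and 26.1% lower), with a median log2 fold change of 0.03. Ncoa2, a p160 coactivator, had the largest change of those called, from 2448 ± 79.5 to 3433 ± 112.5 normalized reads (SD over n = 3), a log2 fold change of 0.49 (limma adjusted p = 8.93e-08). Ing4, which represses HIF activity, rose by 0.27, and Crebbp, the acetyltransferase CBP, rose by 0.16. Ruvbl1, Ncoa1 and Cdk8 fell by 0.26, 0.22 and 0.15. Ep300, the other acetyltransferase (-0.03), Cited2, a competitor for its HIF-binding domain (0.03), and Hif3a, an inhibitory alpha subunit (-0.17), were not called. This count fell to 5 without RORγtN275D replicate 3 and in a limma fit without a trend.

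Other bHLH-PAS proteins include partners and relatives of ARNT, and 7 were tested. Of these, 2 were called higher and 2 lower, near the 50.9% called over all genes, and the median log2 fold change was 0.08. Npas4, an activity-dependent factor, fell from 623 ± 55.4 to 208 ± 21.2 normalized reads (SD over n = 3), a log2 fold change of -1.58 (limma adjusted p = 2.96e-10). Ahrr, the repressor of the aryl hydrocarbon receptor, fell by 0.52 from a low 72.0 ± 6.38 to 50.8 ± 12.6 normalized reads, and its libraries overlapped between the genotypes. Ahr itself, a ligand-activated partner of ARNT with a known role in Th17 cells, rose by 0.32, from 288 ± 35.7 to 357 ± 19.1 normalized reads. Arntl2, a relative of Arnt in the circadian clock, rose by 0.77 from a low 41.4 ± 3.05 to 71.4 ± 3.69.

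Among 9 genes that act on Hif1a transcription or translation, 2 were higher and 4 were lower (24.7% and 26.1% over all genes). Their median log2 fold change was -0.02, and they include a repressor as well as inducers. Eif4ebp1, which encodes the translation repressor 4E-BP1 under mTOR control, rose from 1575 ± 133 to 2583 ± 78.4 normalized reads (SD over n = 3), a log2 fold change of 0.72 (limma adjusted p = 2.17e-08). Stat3, a transcription factor downstream of IL-6 and IL-23, rose by 0.22. Rptor, Rps6kb1 and Eif4e, all of the mTOR pathway, fell by 0.15, 0.14 and 0.13, and Mtor was not called. Under quantile normalization the split of this list was 3 higher and 1 lower, so the small falls depend on the scaling.

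Of 31 canonical HIF target genes tested outside the 9 genes, 17 were higher, 7 were lower and 7 were not called, with a median log2 fold change of 0.18, against 24.7% higher and 26.1% lower over all genes tested. The list holds 5 genes called at 2-fold or more in either direction, a class that held 3.59% of all genes tested. P4ha2, a collagen prolyl hydroxylase, rose from 729 ± 24.6 to 1791 ± 38.0 normalized reads (SD over n = 3), a log2 fold change of 1.30. Ndrg1 rose from 4234 ± 22.2 to 10311 ± 206 (1.28), and the MYC antagonist Mxi1 from 726 ± 45.5 to 1506 ± 79.0 (1.05). Other targets went the opposite way. Hilpda, a lipid droplet protein, fell from 1660 ± 101 to 663 ± 30.7 (-1.32), the glycolytic regulator Pfkfb3 from 2053 ± 61.3 to 1148 ± 22.3 (-0.84), and the mTOR inhibitor Ddit4 from 4488 ± 339 to 3103 ± 63.9 (-0.53), all with SD and n = 3. The 6 genes named passed the limma test, with adjusted p-values of 1.90e-07 or less. Vegfa, the classical angiogenic target (-0.08), and Ldha, lactate dehydrogenase A (0.0037), were not called.

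The hydroxylases use 2-oxoglutarate as co-substrate and are inhibited by succinate and fumarate. Of 19 enzymes tested that make or use these metabolites, 2 were higher, 11 were lower and 6 were not called, where 24.7% and 26.1% of all genes were higher and lower, with a median log2 fold change of -0.15. Idh1, the cytosolic isocitrate dehydrogenase that makes 2-oxoglutarate, changed most, from 621 ± 29.9 to 350.3 ± 21.6 normalized reads (SD over n = 3), a log2 fold change of -0.83 (limma adjusted p = 4.48e-08). Dlst, a subunit of the 2-oxoglutarate dehydrogenase complex, fell by 0.28. The 4 subunits of succinate dehydrogenase, Sdha, Sdhb, Sdhc and Sdhd, all fell, by 0.17, 0.14, 0.15 and 0.28, and the fumarase gene Fh1 fell by 0.17. Under quantile normalization only Sdhd of the 4 was still called (limma adjusted p = 0.00138), although all 4 stayed lower. The enzymes called higher were D2hgdh, which removes D-2-hydroxyglutarate (0.29), and the glutamate dehydrogenase gene Glud1 (0.19). Metabolite levels were not measured in these libraries.

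**Figure D5:**
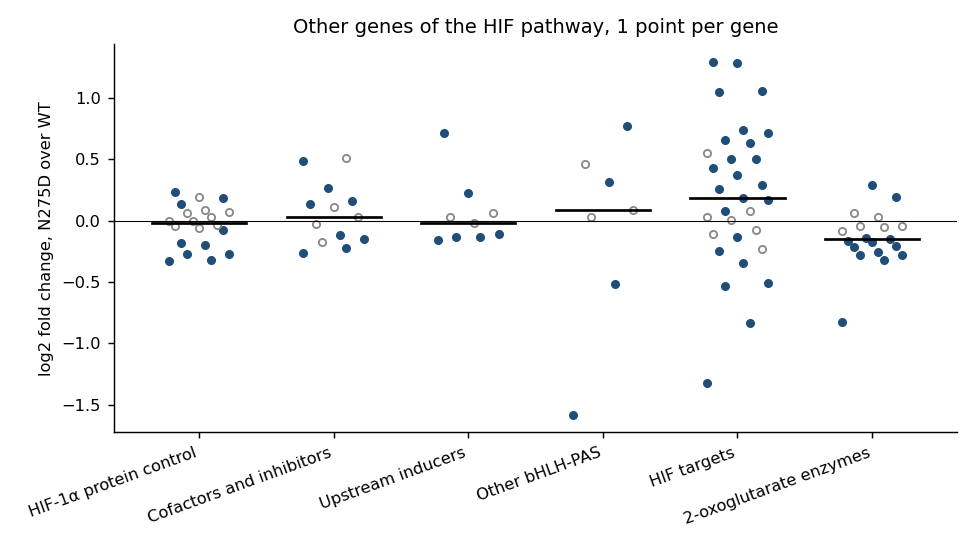
Log2 fold change, RORγtN275D over WT, of the genes tested in 6 lists around the HIF pathway, with 1 point per gene and a bar at the median. Filled points are called at an adjusted p under 0.05 and open points are not. HIF targets run from -1.32 to 1.30 with their median at 0.18, whereas the median of the 2-oxoglutarate enzymes lies at -0.15.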

How the data were processed

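RNA-seq of 3 WT and 3 RORγtN275D Th17 libraries was analysed, grouped by the genotype and number in their labels. According to the methods, the authors made strand-specific mRNA libraries, whereas the labels name poly-A selection and a directional kit. Trimmed reads were aligned by the authors to mm10 (STAR), assigned to genes (featureCounts) and tested (DESeq2). The deposited values (signal) are the authors' reads per gene times 1 factor per library, in whole multiples of it within 1e-06. The deposited table also holds the authors' log2 fold changes, q-values and group averages (a score), which were not used. Columns of per-sample values left unused numbered 0.

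All 11908 genes averaging at least 10 normalized reads were fitted together with limma (version 3.58.1, R 4.3.3, trended prior with 12 degrees of freedom, pseudocount 1) and adjusted by Benjamini-Hochberg. Single genes had an exact two-sided permutation test over libraries (Python 3.11.15). The scripts were tested on simulated data. Gene positions and exon lengths came from GENCODE vM21 on GRCm38, and promoters from RefSeq.

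The other lists, like the 9 genes, were chosen with earlier results of these data known. Named genes are the 9, and of each list the 3 called with the largest increase and the 3 with the largest decrease. A gene that this rule names, and a marker gene, are not reported here. Other genes were named after their values were seen, namely the VHL ligase scaffold, succinate dehydrogenase subunits and Fh1, Mtor, and the coactivators and targets given as not called. For Hif1a and Arnt, the 3 genes closest in profile were named, among genes with a mean of at least 100. Alternatives were other pseudocounts (0.1, 10), filters (above 0, at least 100), TMM-type or quantile scaling, no trend, the replicate block and each library left out.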

Additional observations from a re-analysis of the deposited data

How the results depend on the processing

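The count of the 9 genes called was 6 or 7 under each of the 14 alternatives run, and no direction reversed. At 2-fold it was 1, but 0 with a mean of at least 100, a filter that leaves 7 of the 9 genes and removes Epas1 and Arnt2. The log2 fold change ran from 0.72 to 0.85 for Hif1a, 1.15 to 1.58 for Epas1, 0.31 to 0.36 for Arnt, -0.38 to -0.28 for Vhl, 0.38 to 0.48 for Egln1 and 0.43 to 0.54 for Egln3, called each time it was fitted, and from 0.11 to 0.18 for Egln2, whose call was lost in 5 of the 14. With each library left out in turn, calls ranged from 5 to 10 for HIF-1α protein control and from 5 to 9 for coactivators and inhibitors. The latter gave 5 calls without a trend, and the cause was not tested. The other bHLH-PAS genes gave 2 calls with a mean of at least 100, which leaves 4 of them. The correlations of same-numbered deviations were -0.045, 0.041 and -0.083, and those of differently numbered pairs ran from -0.054 to 0.089. No pairing by number was seen, but with so few libraries these values cannot decide whether a preparation step was shared. With the replicate block 7 of the 9 genes were called, with Egln2 at a limma adjusted p of 0.0458. Planned edgeR and DESeq2 alternatives on recovered reads were not run. The unit check used does not accept recovered reads as counts where the factor lies near 1, as in 4 libraries. The values were nonetheless whole multiples of the factor within 1e-06 in every library. Depth limits Epas1 and Arnt2 most, whose means were under 100.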

Other observations

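The genes closest in profile to Hif1a and to Arnt over the 6 libraries were picked from 9574 compared. The smallest of so many differences are small by selection, and their spread over all genes compared was not examined. The values therefore show no special link to Hif1a or Arnt. Whether the genes picked belong to the HIF pathway was not tested. Likeness was the root mean square difference between centred log2(normalized reads + 1) profiles, among 9574 genes with a mean of at least 100, so that 0 would be an identical profile. The closest to Hif1a were Lilrb4a, an inhibitory receptor of immune cells (0.0248), Abca1, a cholesterol exporter (0.0271), and Spty2d1 (0.0283). Lilrb4a went from 457 ± 20.2 in WT to 789 ± 17.2 normalized reads in RORγtN275D cells, Abca1 from 739 ± 37.0 to 1265 ± 31.3, and Spty2d1 from 692 ± 57.3 to 1216 ± 16.4 (SD over n = 3). The closest to Arnt were Blzf1 (0.0139), Klhl25 (0.0144) and Bet1 (0.0160). Blzf1 went from 523 ± 6.29 to 644 ± 7.71, Klhl25 from 459 ± 2.98 to 573 ± 10.5, and Bet1 from 276 ± 1.28 to 338 ± 7.16 normalized reads (SD over n = 3).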
